A study of Homo sapiens with 12 samples.

Results

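Golgins and Golgi stacking proteins were examined at the transcript level in HMLE cells, an immortalised line of human mammary epithelial cells. The 10 genes were listed by name, and the choice was made with earlier results of these data known. The list holds the golgins GOLGA1, GOLGA2, GOLGA3, GOLGA4, GOLGA5, GOLGB1, GCC1 and GCC2, and the stacking proteins GORASP1 and GORASP2. They are 10 of the 26364 genes in each deposited table, and all 10 were among the 11948 genes tested. The groups were HMLE-Twist cells given 0.2 uM salinomycin for 24 hours, HMLE-Twist cells given the DMSO mock, HMLE-pBp cells given 0.2 uM salinomycin for 24 hours, and HMLE-pBp cells given the mock, with 3 biological replicates in each group. HMLE-Twist cells, with high TWIST1, a transcription factor of the epithelial to mesenchymal transition (EMT), are labelled EMT, and HMLE-pBp cells are labelled nonEMT. Salinomycin is a polyether ionophore that carries potassium across membranes. EMT and nonEMT cells are each represented by 1 line, so differences of state cannot be told apart from other differences between these lines.

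Golgins are long coiled-coil proteins that stand out from Golgi membranes and catch incoming vesicles, with small GTPases of the RAB and ARF families as their partners. Each sits at its own place in the stack: GOLGA2 (GM130) at the cis face, GOLGA5 (golgin-84) and GOLGB1 (giantin) at the rims, and the GRIP domain golgins GOLGA1 (golgin-97), GOLGA4 (golgin-245), GCC1 (GCC88) and GCC2 (GCC185) at the trans face. GORASP1 (GRASP65) and GORASP2 (GRASP55) hold cisternae together, the first as a partner of GOLGA2 on the cis side and the second on medial cisternae.

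Libraries held 17.6 to 26.1 megareads (recovered reads). TWIST1 stood at 706 to 1185 FPKM (read pairs scaled by transcript length and library size) in HMLE-Twist cells under salinomycin and 505 to 1107 FPKM under mock, against 1.83 to 2.36 FPKM in HMLE-pBp cells under salinomycin and 2.48 to 2.55 FPKM under mock. The summed level of 5 mesenchymal markers (VIM, CDH2, FN1, ZEB1 and TWIST1) was 4316 to 5106 FPKM in HMLE-Twist cells under salinomycin, 3079 to 3990 under mock, 296 to 342 in HMLE-pBp cells under salinomycin and 266 to 302 under mock. The sum of 5 epithelial markers (CDH1, EPCAM, KRT5, KRT14 and ESRP1) was 1.503 to 2.68 FPKM in HMLE-Twist cells under salinomycin, 3.24 to 7.001 under mock, 1981 to 2128 in HMLE-pBp cells under salinomycin and 2264 to 2648 under mock. Both sums thus lay apart between salinomycin and mock in HMLE-Twist cells, and the epithelial sum did so in HMLE-pBp cells. Single markers did not all follow their sum. Mean ESRP1 in HMLE-pBp cells was 48.0 FPKM under salinomycin and 33.4 under mock, and CDH1 181 and 168, while EPCAM, KRT5 and KRT14 were lower. Mean ZEB1 in HMLE-Twist cells was 19.4 FPKM under salinomycin and 23.8 under mock, and CDH2 13.9 and 13.8, while VIM, FN1 and TWIST1 were higher. The part of the sums in the results was not tested. Of the endothelial markers, 4 of 5 could be measured and their sum stayed at or below 1.29 FPKM. Of the leukocyte markers, 3 of 5 could be measured, and their sum of 6.27 to 15.3 FPKM in HMLE-pBp cells under salinomycin and 19.1 to 29.2 under mock came from CD14, with PTPRC and CD3E at or near 0.

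The promoter windows of the members are shown because one short element, ACGTGGC, is the Golgi apparatus stress response element through which TFE3 acts on Golgi genes. RefSeq windows (build GRCh38.p14) were matched for 9 of the 10 genes, all but GOLGA4. They came to 11 windows, as GOLGA3 has more than 1, so counts of genes stand below beside shares of windows. In the 250 bases before the start the element, on either strand, occurred in 3 of these 9 genes (GOLGA1, GOLGA5 and GORASP2), and in 2.78% of all 35116 windows of that length. The windows below run from 5′ to 3′ on the gene's strand and end at the base before the start. They lie at chr9:124941084-124941333 (minus strand, GOLGA1), chr14:92794055-92794304 (plus strand, GOLGA5), chr2:170929003-170929252 (plus strand, GORASP2), chr9:128276008-128276257 (minus strand, GOLGA2) and chr12:132829082-132829331 (minus strand, GOLGA3), with the element in capitals.
GOLGA1: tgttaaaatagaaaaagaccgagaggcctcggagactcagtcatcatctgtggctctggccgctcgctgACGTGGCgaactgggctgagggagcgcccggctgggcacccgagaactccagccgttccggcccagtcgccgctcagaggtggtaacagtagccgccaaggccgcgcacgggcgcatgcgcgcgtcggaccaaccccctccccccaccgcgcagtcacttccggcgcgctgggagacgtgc
GOLGA5: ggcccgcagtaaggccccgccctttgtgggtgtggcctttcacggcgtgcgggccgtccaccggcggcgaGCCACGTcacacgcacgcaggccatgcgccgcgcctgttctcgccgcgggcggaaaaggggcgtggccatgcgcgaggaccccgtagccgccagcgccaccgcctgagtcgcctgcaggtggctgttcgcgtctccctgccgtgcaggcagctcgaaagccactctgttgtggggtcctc
GORASP2: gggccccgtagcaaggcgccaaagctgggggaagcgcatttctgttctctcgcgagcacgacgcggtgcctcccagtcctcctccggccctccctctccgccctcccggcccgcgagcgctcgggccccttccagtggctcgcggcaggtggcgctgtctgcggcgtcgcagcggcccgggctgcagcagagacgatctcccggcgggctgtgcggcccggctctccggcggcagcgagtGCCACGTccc
GOLGA2: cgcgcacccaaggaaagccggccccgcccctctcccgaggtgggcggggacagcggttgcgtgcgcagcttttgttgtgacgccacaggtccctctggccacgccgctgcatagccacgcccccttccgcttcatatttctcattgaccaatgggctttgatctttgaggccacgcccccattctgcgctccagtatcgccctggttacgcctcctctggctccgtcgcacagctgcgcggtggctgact
GOLGA3: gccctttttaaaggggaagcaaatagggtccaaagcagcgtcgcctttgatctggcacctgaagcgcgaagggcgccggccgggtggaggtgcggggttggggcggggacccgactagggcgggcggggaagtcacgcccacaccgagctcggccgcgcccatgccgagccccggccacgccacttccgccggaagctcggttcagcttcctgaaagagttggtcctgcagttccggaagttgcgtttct
The windows of GOLGA2 and GOLGA3 printed above, shown because these members had the largest responses to salinomycin, hold no ACGTGGC. Whether the element has a part in the response of any member was not tested. A second window of GOLGA3 has the element on the opposite strand, beginning 9 bases after its start. The element lies 181, 180 and 10 bases before the start in GOLGA1, GOLGA5 and GORASP2. In GOLGA1 and GOLGA5 it overlaps the core of the unfolded protein response element, TGACGTGG, which 0.612% of all upstream windows hold. The cAMP response element TGACGTCA occurred once, 31 bases before the start of GCC1, against 1.65% of all upstream windows. The E-box CACGTG was in the upstream window of none of the 9 genes, against 6.34% of all windows. CCAAT boxes stood in GOLGA2, GOLGB1 and GCC2, 3 of 9, and in 32% of all windows.

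Salinomycin raised most of the family in both lines. In HMLE-Twist cells 7 of the 10 members rose and none fell (limma, Benjamini-Hochberg adjusted p under 0.05 over all tested genes), where 26.3% of all tested genes passed the test (12.8% higher and 13.5% lower). In HMLE-pBp cells 6 of the 10 rose and none fell, against 18.9% of all tested genes (9.59% higher and 9.36% lower). The median log2 fold change of the 10 members was 0.72 in HMLE-Twist cells and 0.44 in HMLE-pBp cells, while the medians of all tested genes were -0.013 and -0.012. GOLGA2, GOLGA3, GOLGA5, GOLGB1 and GCC1, 5 members, rose in both lines, as did 3.99% of all tested genes. The members and the lists further below were chosen with earlier results of these data known. Their counts beside the shares of all tested genes are therefore not an independent comparison. Libraries measure cultures as a whole, so a change in the share of cells of a kind and a change in RNA per cell cannot be told apart.

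**Figure D1:**
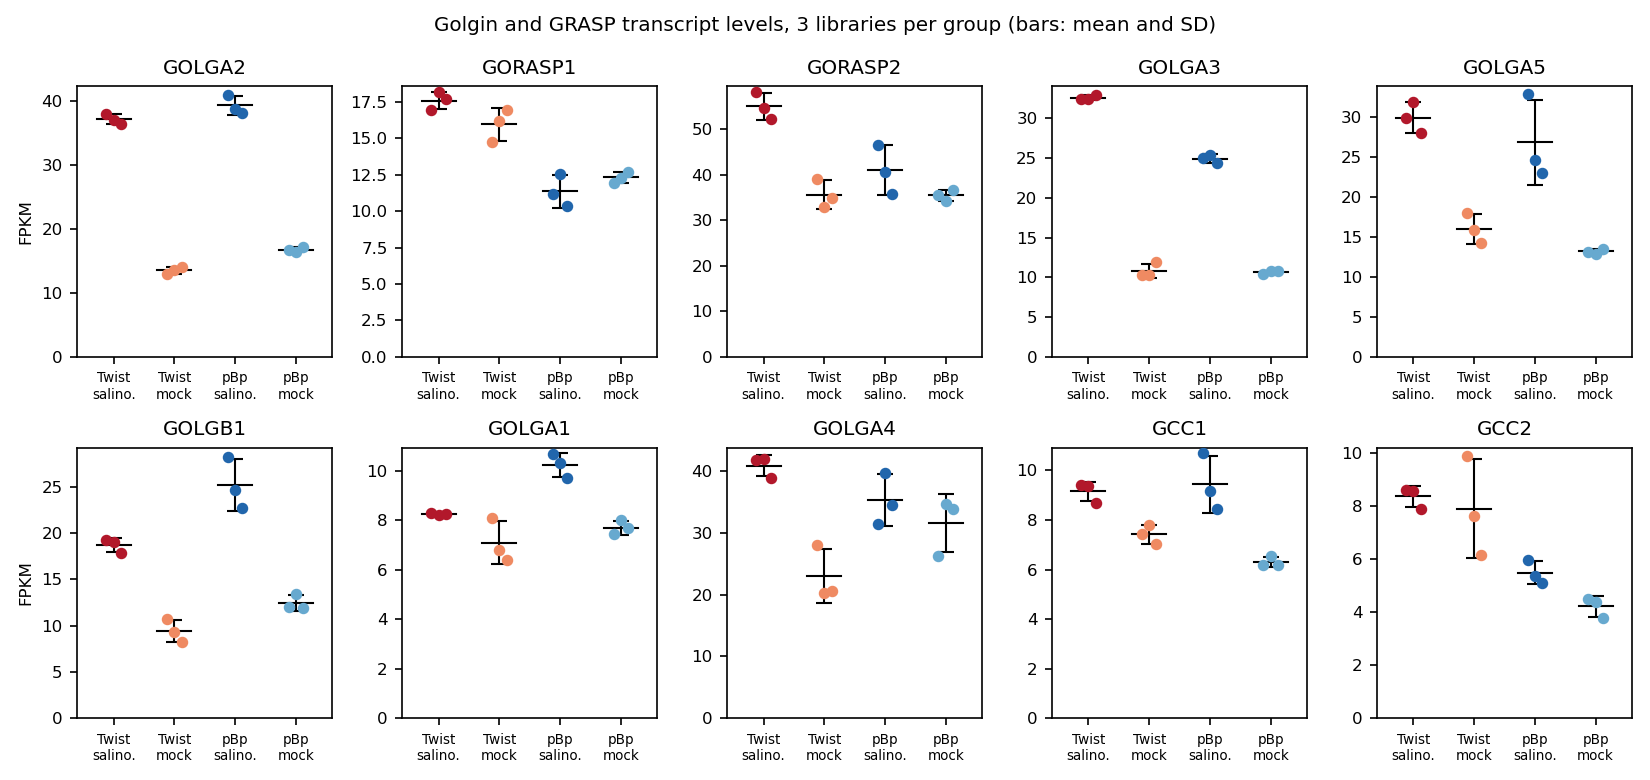
Transcript levels in FPKM (y axis, from 0) of the 10 genes in each library, with HMLE-Twist salinomycin, HMLE-Twist mock, HMLE-pBp salinomycin and HMLE-pBp mock from left to right; points are libraries, bars the mean and SD of 3. The salinomycin libraries of GOLGA2 and GOLGA3 stand at 24.4 FPKM or more in both lines, and the mock libraries at 17.1 or less.

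On the cis side, GOLGA2 was raised, while the response of its stacking partner GORASP1 did not pass the test. GOLGA2, which ties vesicle tethering factors to cis cisternae, had 38.0, 37.1 and 36.3 FPKM in HMLE-Twist cells under salinomycin, against 12.9, 13.6 and 14.0 under mock. In HMLE-pBp cells it had 40.9, 38.8 and 38.1 FPKM under salinomycin, against 16.7, 16.3 and 17.1 under mock. The lowest salinomycin library was above the highest mock library in each line. The log2 fold change was 1.39 ± 0.07 (SE, adjusted p = 2.5e-07) in HMLE-Twist cells and 1.18 ± 0.07 (adjusted p = 1.91e-06) in HMLE-pBp cells. GOLGA2 has pseudogene copies in the tables: GOLGA2P7, the one with the most reads, held 95 to 105 reads in HMLE-Twist salinomycin libraries, 58 to 124 in HMLE-Twist mock, 184 to 200 in HMLE-pBp salinomycin and 207 to 268 in HMLE-pBp mock. GOLGA2 itself held 1163 to 3974 reads a library. The 5 GOLGA2 pseudogenes in the tables together came to 3.61% to 30.5% of its reads, and how shared reads were assigned is not given in the sources used here.

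GORASP1 had 16.95, 18.2 and 17.7 FPKM in HMLE-Twist cells under salinomycin, against 14.7, 16.2 and 16.9 under mock. Its levels in HMLE-pBp cells were 11.2, 12.6 and 10.3 FPKM under salinomycin, against 11.9, 12.3 and 12.7 under mock. The groups lay narrowly apart in HMLE-Twist cells and overlapped in HMLE-pBp cells. Neither response passed the test, with a log2 fold change of 0.13 ± 0.08 (95% interval -0.05 to 0.32, adjusted p = 0.273) in HMLE-Twist cells and -0.11 ± 0.08 (95% interval -0.29 to 0.07, adjusted p = 0.382) in HMLE-pBp cells.

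GORASP2, the medial stacking protein with an element 10 bases before its start, had 58.2, 54.6 and 52.2 FPKM in HMLE-Twist cells under salinomycin, against 39.0, 32.9 and 34.99 under mock. HMLE-pBp cells had 46.6, 40.6 and 35.7 FPKM under salinomycin, against 35.5, 34.2 and 36.7 under mock. Salinomycin libraries were all higher in HMLE-Twist cells, while in HMLE-pBp cells replicate 3 under salinomycin lay within the mock range. GORASP2 rose by a log2 fold change of 0.61 ± 0.10 (adjusted p = 0.000949) in HMLE-Twist cells. In HMLE-pBp cells the log2 fold change was 0.20 ± 0.10 (95% interval -0.02 to 0.41, adjusted p = 0.185).

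GOLGA3 (golgin-160), a golgin of the cis side with a role in the delivery of membrane proteins to the cell surface, had the largest response of the family in HMLE-Twist cells. It had 32.4, 32.5 and 32.9 FPKM in HMLE-Twist cells under salinomycin, against 10.3, 10.3 and 11.9 under mock. HMLE-pBp cells had 25.1, 25.4 and 24.4 FPKM under salinomycin, against 10.4, 10.8 and 10.7 under mock. The groups were far apart in both lines. The 3 salinomycin libraries ran from 32.4 to 32.9 FPKM in HMLE-Twist cells and from 24.4 to 25.4 in HMLE-pBp cells. GOLGA3 rose by 1.51 ± 0.07 on the log2 scale (adjusted p = 2.5e-07) in HMLE-Twist cells, which placed it 44th of the 11948 tested genes by fold change. In HMLE-pBp cells it rose by 1.16 ± 0.07 (adjusted p = 2.97e-06) and was 77th, next to GOLGA2 at 73rd.

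The golgins of the cisternal rims rose by close amounts in the 2 lines. GOLGA5, a tether of vesicles that move within the stack, had 29.9, 31.9 and 27.9 FPKM in HMLE-Twist cells under salinomycin, against 17.95, 15.9 and 14.2 under mock. HMLE-pBp cells had 32.8, 24.6 and 22.9 FPKM of GOLGA5 under salinomycin, against 13.1, 12.8 and 13.5 under mock. No salinomycin library overlapped the mock libraries, and HMLE-pBp replicate 1 under salinomycin stood above the other two. The log2 fold change of GOLGA5 was 0.87 ± 0.12 (adjusted p = 0.000426) in HMLE-Twist cells and 0.96 ± 0.12 (adjusted p = 0.000441) in HMLE-pBp cells.

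GOLGB1, the longest golgin and one anchored in the membrane by a transmembrane segment, had 19.2, 19.1 and 17.8 FPKM in HMLE-Twist cells under salinomycin, against 10.7, 9.37 and 8.25 under mock. It had 28.2, 24.7 and 22.7 FPKM in HMLE-pBp cells under salinomycin, against 12.0, 13.5 and 11.9 under mock. The groups did not overlap in either line. GOLGB1 rose by 0.92 ± 0.10 on the log2 scale (adjusted p = 8.6e-05) in HMLE-Twist cells and by 0.96 ± 0.10 (adjusted p = 0.000145) in HMLE-pBp cells. The difference of the responses was -0.04 (95% interval -0.36 to 0.28) for GOLGB1 and -0.09 (95% interval -0.47 to 0.29) for GOLGA5.

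At the trans face the 4 GRIP domain golgins, which ARL1 recruits or which share its docking domain, responded unevenly. GOLGA4, a tether of carriers from endosomes, had 41.8, 41.9 and 38.8 FPKM in HMLE-Twist cells under salinomycin, against 27.98, 20.2 and 20.7 under mock. HMLE-pBp cells had 31.4, 39.7 and 34.6 FPKM of GOLGA4 under salinomycin, against 26.3, 34.7 and 33.9 under mock. The groups lay apart in HMLE-Twist cells and overlapped in HMLE-pBp cells. GOLGA4 rose by 0.82 ± 0.14 on the log2 scale (adjusted p = 0.00124) in HMLE-Twist cells, and its log2 fold change in HMLE-pBp cells was 0.16 ± 0.14 (95% interval -0.15 to 0.46, adjusted p = 0.455).

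GOLGA1, a tether of endosome carriers whose promoter window holds the element, had 8.30, 8.23 and 8.26 FPKM in HMLE-Twist cells under salinomycin, against 8.10, 6.82 and 6.40 under mock. In HMLE-pBp cells its levels were 10.7, 10.3 and 9.71 FPKM under salinomycin, against 7.45, 8.01 and 7.67 under mock. The gap between the groups was narrow in HMLE-Twist cells, where mock replicate 1 came close to the salinomycin libraries, and wide in HMLE-pBp cells. GOLGA1 rose by 0.37 ± 0.09 on the log2 scale (adjusted p = 0.0125) in HMLE-pBp cells, and its log2 fold change in HMLE-Twist cells was 0.20 ± 0.09 (adjusted p = 0.109). Without HMLE-Twist mock replicate 1, the highest mock library, the adjusted p in HMLE-Twist cells was 0.0129. The response did not pass when any 1 of the other 11 libraries was left out (0.098 to 0.282).

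GCC1 had 9.39, 9.38 and 8.70 FPKM in HMLE-Twist cells under salinomycin, against 7.43, 7.81 and 7.05 under mock. In HMLE-pBp cells GCC1 had 10.7, 9.17 and 8.46 FPKM under salinomycin, against 6.18, 6.54 and 6.18 under mock. Salinomycin libraries were higher throughout. GCC1 rose by 0.51 ± 0.09 on the log2 scale (adjusted p = 0.00247) in HMLE-pBp cells and by 0.27 ± 0.09 (adjusted p = 0.0397) in HMLE-Twist cells. The call in HMLE-Twist cells held without HMLE-pBp salinomycin replicate 1 (adjusted p = 0.0168) or 3 (0.0307), and was lost without each of the other 10 libraries (0.0527 to 0.117).

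GCC2, which helps to keep the ribbon together and tethers carriers from late endosomes, had 8.60, 8.58 and 7.91 FPKM in HMLE-Twist cells under salinomycin, against 9.90, 7.63 and 6.17 under mock. HMLE-pBp cells had 5.97, 5.38 and 5.11 FPKM of GCC2 under salinomycin, against 4.504, 4.38 and 3.78 under mock. The groups overlapped in HMLE-Twist cells, where the mock libraries were widely spread, and lay apart in HMLE-pBp cells. The log2 fold change was 0.09 ± 0.13 (95% interval -0.19 to 0.38, adjusted p = 0.655) in HMLE-Twist cells and 0.31 ± 0.13 (95% interval 0.03 to 0.60, adjusted p = 0.113) in HMLE-pBp cells. With the replicate number as a block the HMLE-pBp response of GCC2 passed the test (adjusted p = 0.0244), and without HMLE-Twist mock replicate 1 it did so too (0.0309). This response did not pass when any 1 of the other 11 libraries was left out (0.0503 to 0.318). Reads of RGPD genes, which carry a related GRIP domain, came to 1.27% to 4.01% of those of GCC2.

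**Figure D2:**
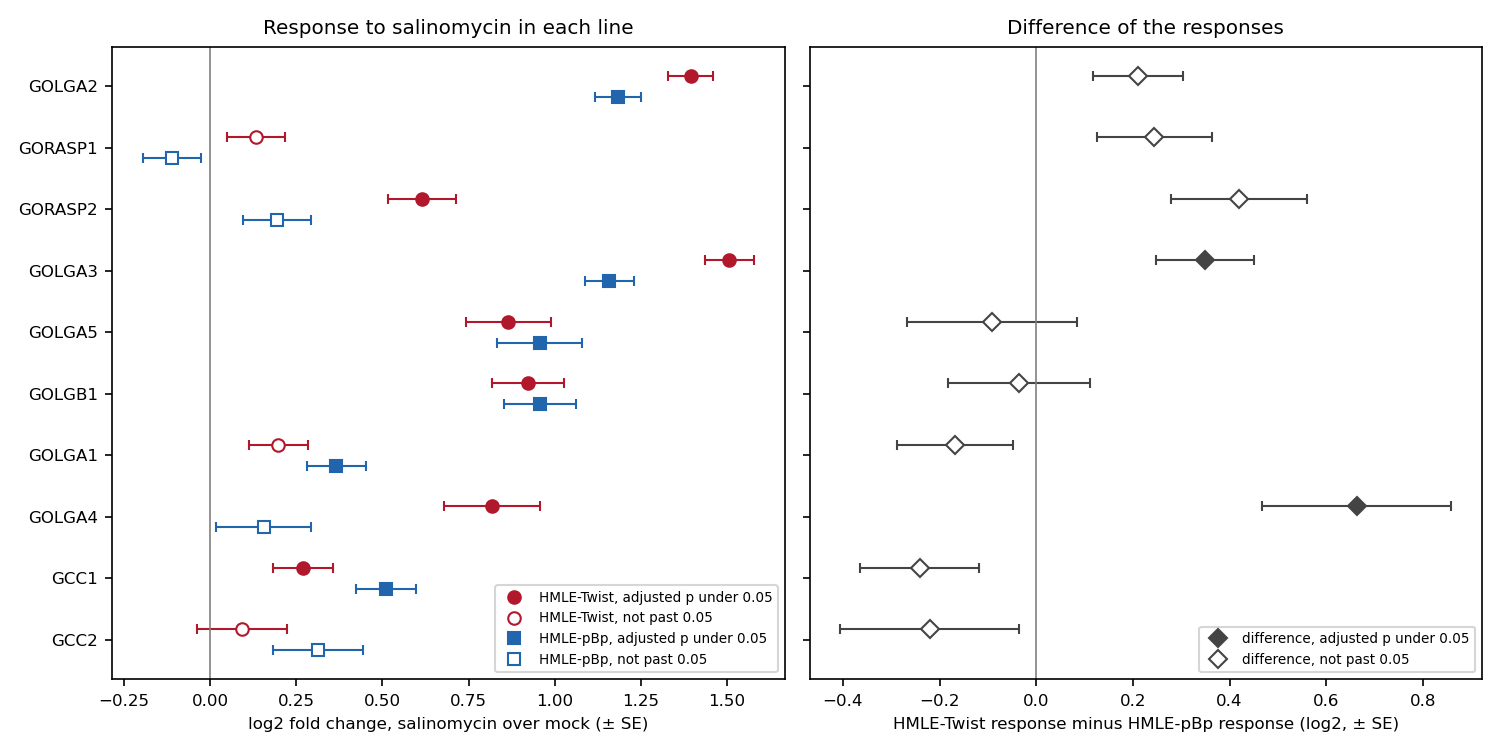
Left, log2 fold change of salinomycin over mock (x axis) for each gene in HMLE-Twist cells (circles) and HMLE-pBp cells (squares); right, the HMLE-Twist response minus the HMLE-pBp response; bars are standard errors from the limma fit, and filled symbols passed an adjusted p of 0.05. GOLGA2 and GOLGA3 lie at 1.16 or above in both lines, and GOLGA4 has the largest difference, 0.66.

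Across the 4 groups, the salinomycin libraries of 9 of the 10 members were all above the mock libraries in HMLE-Twist cells, as they were for 19.1% of all tested genes. In HMLE-pBp cells 7 of the 10 members were so separated, against 20.3% of all tested genes. No member was separated in the other direction, against 21% of all tested genes in HMLE-Twist cells and 21.2% in HMLE-pBp cells.

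The response differed between the lines for GOLGA3 and GOLGA4, which was tested as the HMLE-Twist response minus the HMLE-pBp response. Of the 10 members 2 passed the test, both higher, where 13.6% of all tested genes passed (6.96% higher and 6.64% lower). GOLGA4 differed by 0.66 ± 0.20 on the log2 scale (95% interval 0.24 to 1.09, adjusted p = 0.0439) and GOLGA3 by 0.35 ± 0.10 (95% interval 0.13 to 0.57, adjusted p = 0.0415). These calls sit near the threshold. That of GOLGA3 held without HMLE-Twist mock replicate 1 (adjusted p = 0.0436) or 3 (0.0150) and was lost without each of the other 10 libraries (0.0586 to 0.102). That of GOLGA4 held without HMLE-Twist mock replicate 1 (0.0107), HMLE-pBp mock replicate 1 (0.0242) or HMLE-pBp salinomycin replicate 2 (0.0423) and was lost without each of the other 9 (0.0618 to 0.108). GORASP2 had a difference of 0.42 ± 0.14 (95% interval 0.11 to 0.73), with an adjusted p of 0.0677 that became 0.0184 with the replicate number as a block. For GOLGA2 the difference was 0.21 ± 0.09 (95% interval 0.01 to 0.41, adjusted p = 0.146). The remaining 6 differences ran from -0.24 for GCC1 (adjusted p = 0.204) to 0.24 for GORASP1 (adjusted p = 0.185).

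Under mock, the members called between the lines were no more frequent than among all genes. HMLE-Twist cells had more GCC2, GORASP1 and GCC1 and less GOLGA4, GOLGB1 and GOLGA2 than HMLE-pBp cells, 3 members higher and 3 lower, where 73.3% of all tested genes passed the test, 36.1% higher and 37.2% lower. GCC2, with a mean of 7.90 ± 1.88 FPKM in HMLE-Twist mock and 4.22 ± 0.387 in HMLE-pBp mock (SD, n = 3 each), had the largest difference (0.75 ± 0.13 on the log2 scale, adjusted p = 0.000221 by limma). GORASP1 averaged 15.96 ± 1.13 FPKM in HMLE-Twist mock and 12.3 ± 0.388 in HMLE-pBp mock (0.35 ± 0.08, adjusted p = 0.00265). GOLGA4 was lower, at 23.0 ± 4.35 FPKM in HMLE-Twist mock and 31.6 ± 4.66 in HMLE-pBp mock (-0.45 ± 0.14, adjusted p = 0.011), though the groups overlapped, and without HMLE-Twist mock replicate 2 its adjusted p was 0.0518. GOLGB1, at 9.44 ± 1.23 FPKM in HMLE-Twist mock and 12.5 ± 0.881 in HMLE-pBp mock, was lower by -0.37 ± 0.10 (adjusted p = 0.00633). GOLGA2, at 13.5 ± 0.518 FPKM in HMLE-Twist mock and 16.7 ± 0.389 in HMLE-pBp mock, was lower by -0.29 ± 0.07 (adjusted p = 0.00163). GCC1 was higher by 0.21 ± 0.09 (adjusted p = 0.0495), a call that held without HMLE-Twist mock replicate 3 (0.0389), HMLE-pBp salinomycin replicate 1 (0.0272) or replicate 3 (0.0421) and was lost without each of the other 9 libraries (0.06 to 0.132). GOLGA3 and GORASP2 were nearly level between the lines, with log2 differences of 0.02 (95% interval -0.13 to 0.18) and 0.00325 (95% interval -0.21 to 0.22).

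Under salinomycin, HMLE-Twist cells had more GORASP1, GCC2, GORASP2 and GOLGA3 and less GOLGB1 and GOLGA1 than HMLE-pBp cells, 4 members higher and 2 lower, where 63.3% of all tested genes passed, 31.4% higher and 32% lower. GORASP1 differed most, at 17.6 ± 0.608 FPKM in treated HMLE-Twist cells and 11.4 ± 1.13 in treated HMLE-pBp cells (SD, n = 3 each), which is 0.59 ± 0.08 on the log2 scale (limma adjusted p = 5.86e-05). GORASP2, at 55.0 ± 3.03 FPKM in treated HMLE-Twist cells and 41.0 ± 5.46 in treated HMLE-pBp cells, was higher by 0.42 ± 0.10 (adjusted p = 0.00257). GOLGA3, at 32.6 ± 0.277 FPKM in treated HMLE-Twist cells and 24.96 ± 0.511 in treated HMLE-pBp cells, was higher by 0.37 ± 0.07 (adjusted p = 0.00061). GCC2 was higher by 0.53 ± 0.13 (adjusted p = 0.00352), GOLGB1 lower by -0.41 ± 0.10 (adjusted p = 0.00446) and GOLGA1 lower by -0.28 ± 0.09 (adjusted p = 0.0133). The libraries of the lines did not overlap for 4 members higher and 2 lower under mock, against 36.8% and 37.1% of all tested genes, and for 4 higher and 3 lower under salinomycin, against 35% and 34.7%. Scaling by total reads in place of size factors moved the median of all tested genes from near 0 to 0.139 between the lines under mock and to 0.144 under salinomycin. That scaling also moved the split of calls over all genes to 5175 higher and 3773 lower under mock (4318 and 4440 otherwise) and to 4822 higher and 3133 lower under salinomycin (3747 and 3821 otherwise). Under it GOLGA2 (adjusted p = 0.0865) and GOLGB1 (0.0653) under mock and GOLGA1 under salinomycin (0.149) were no longer called lower, while GOLGA5 under mock (0.0119) and GOLGA4 (0.0222) and GOLGA5 (0.0466) under salinomycin were called higher. The summed marker levels given above differed between the lines far more than any member did, and their part in these differences cannot be told apart from the line itself.

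**Figure D3:**
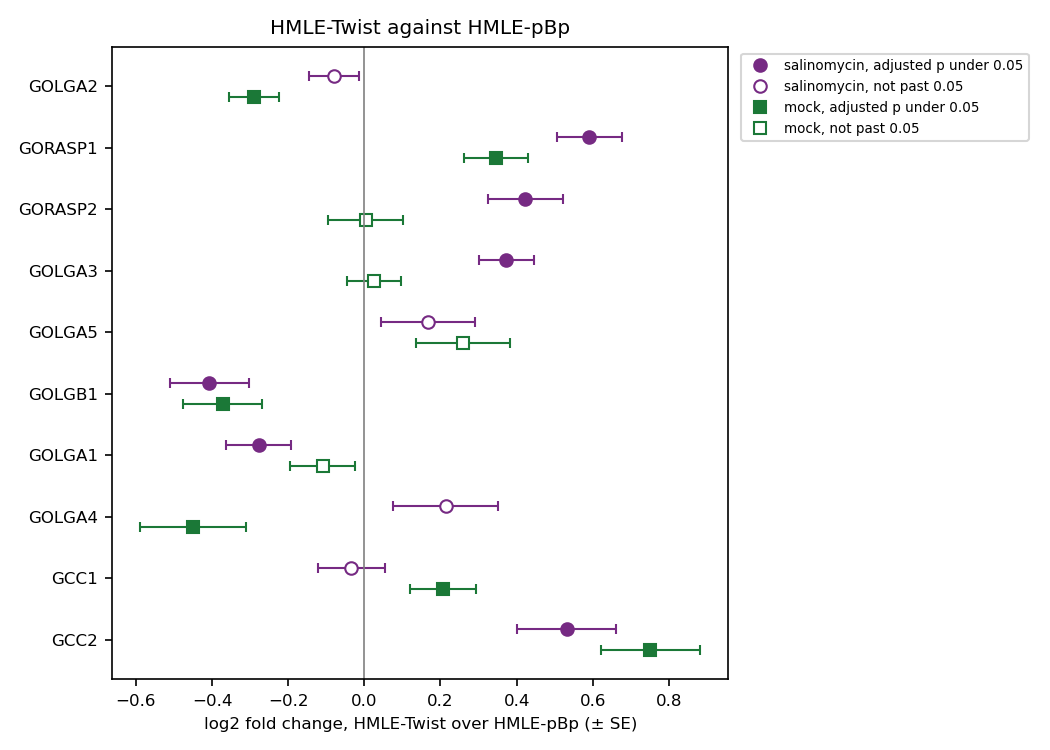
Log2 fold change of HMLE-Twist over HMLE-pBp (x axis) for each gene, under salinomycin (circles) and under mock (squares), with standard errors from the limma fit; filled symbols passed an adjusted p of 0.05. GORASP1 and GCC2 lie to the right and GOLGB1 to the left in both conditions, while GORASP2 and GOLGA3 lie near 0 under mock and at 0.42 and 0.37 under salinomycin.

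Under salinomycin GOLGA2 and GOLGA3 stood higher in the order of levels than under mock in both lines, and GORASP1 stood lower. GORASP2 had the highest mean in all 4 groups. In HMLE-Twist cells under salinomycin GOLGA4, GOLGA2, GOLGA3 and GOLGA5 followed, each separate from its neighbour, and under mock the order after GORASP2 was GOLGA4, GOLGA5, GORASP1, GOLGA2 and GOLGA3, with only GOLGA5 and GORASP1 overlapping up to GOLGA3. In HMLE-pBp cells under salinomycin the libraries of the first 6 genes (GORASP2, GOLGA2, GOLGA4, GOLGA5, GOLGB1 and GOLGA3) overlapped from each to the next, and under mock GORASP2 and GOLGA4 overlapped and stood above GOLGA2. GCC1, GCC2 and GOLGA1 had the 3 lowest means in all 4 groups, at 10.2 FPKM or less.

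Summed over the 10 genes, the level was 258 ± 7.79 FPKM in HMLE-Twist cells under salinomycin and 147 ± 10.64 under mock, and 229 ± 15.9 FPKM in HMLE-pBp cells under salinomycin and 151 ± 5.65 under mock (SD, n = 3 each). The lowest salinomycin sum, 212 FPKM, was above the highest mock sum, 159 FPKM. GOLGA3 made up 12.7% ± 0.499 of the sum in HMLE-Twist cells under salinomycin and 7.43% ± 0.984 under mock, and 10.9% ± 0.613 in HMLE-pBp cells under salinomycin and 7.06% ± 0.118 under mock. The 4 GRIP domain golgins together made up 25.9% ± 0.213 in HMLE-Twist cells under salinomycin and 30.8% ± 2.51 under mock, and 26.4% ± 2.04 in HMLE-pBp cells under salinomycin and 33.1% ± 2.08 under mock. GORASP2 exceeded GORASP1 in FPKM by 3.13 ± 0.264 times in HMLE-Twist cells under salinomycin and 2.25 ± 0.347 times under mock, and by 3.61 ± 0.491 times in HMLE-pBp cells under salinomycin and 2.88 ± 0.0964 times under mock. None of these shares and ratios overlapped between salinomycin and mock within a line. The ratio of GCC2 to GCC1 overlapped in HMLE-Twist cells, at 0.908 to 0.916 under salinomycin and 0.876 to 1.33 under mock. So did the share of GOLGA4, at 15.62% to 16.02% under salinomycin and 14.38% to 17.59% under mock. Both lay apart in HMLE-pBp cells, and the ratio of GOLGA3 to GOLGA4 did so in both lines. GOLGA3 had the largest HMLE-Twist response, so its share there was not an independent measure. Separation of such measures over all genes was not tested.

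**Figure D4:**
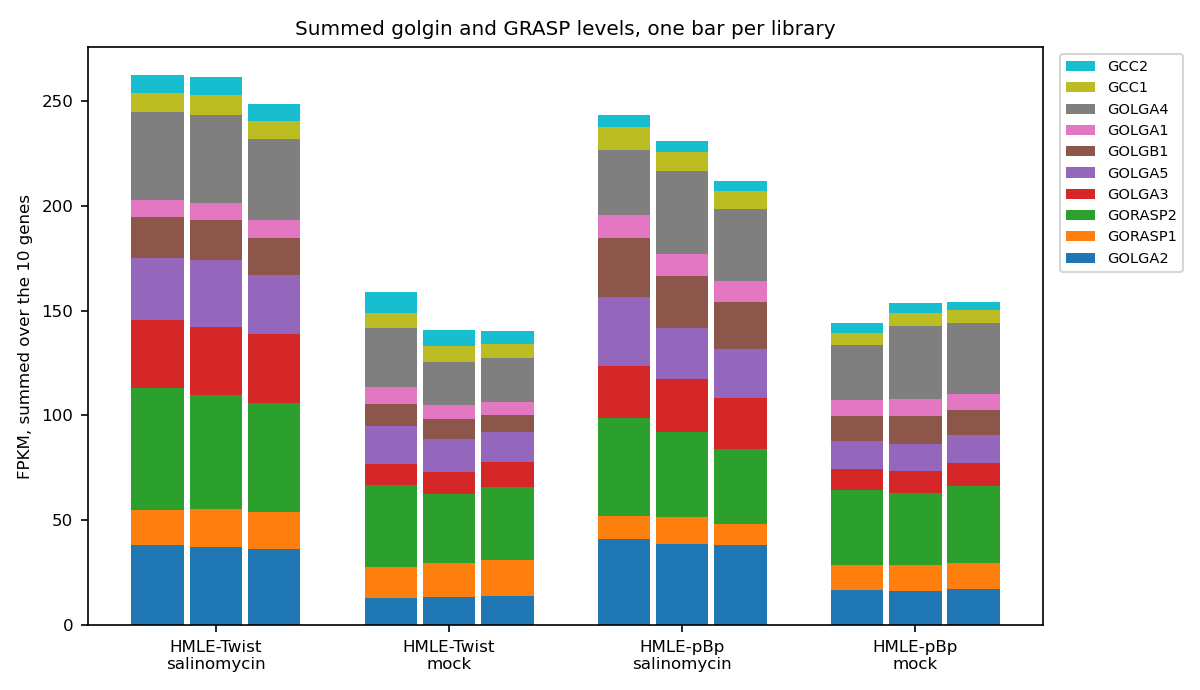
FPKM of the 10 genes stacked in a bar per library (y axis, from 0), 3 libraries per group, HMLE-Twist salinomycin and mock at left and HMLE-pBp salinomycin and mock at right. Salinomycin bars reach 212 to 263 FPKM and mock bars 141 to 159 FPKM.

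Libraries of one group differed most for GCC2, GOLGA5 and GOLGA4. HMLE-Twist mock replicate 1 stood above its group mean most for GCC2, GOLGA4, GOLGB1, GOLGA1 and GOLGA5, by 0.31, 0.29, 0.17, 0.17 and 0.16 on the log2(FPKM + 1) scale, and by 0.13 for GORASP2, and below it for GORASP1, GOLGA3 and GOLGA2 (-0.11, -0.06 and -0.06). HMLE-pBp salinomycin replicate 1 stood above its group mean most for GOLGA5, GORASP2, GCC1 and GOLGB1, by 0.30, 0.19, 0.17 and 0.16, and below it most for GOLGA4 (-0.15). GOLGA2 and GOLGA3 varied least, at most 0.06 and 0.12 from the group mean in all 12 libraries.

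**Figure D5:**
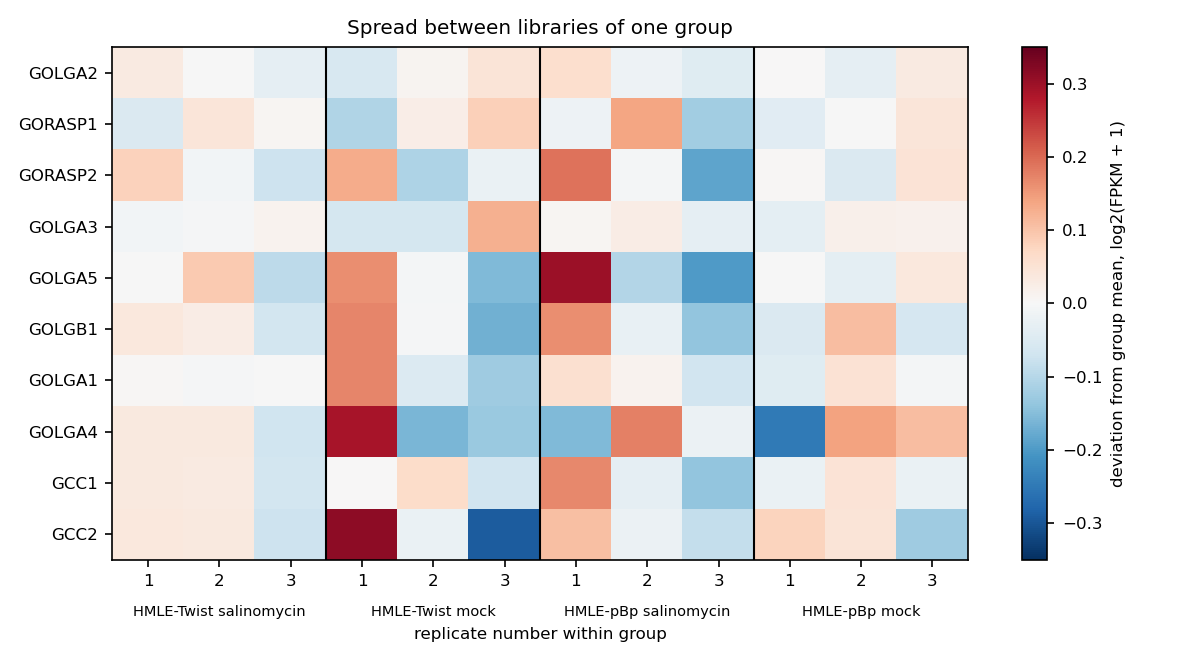
Deviation of each library from its group mean in log2(FPKM + 1) (colour, red above and blue below) for the 10 genes (vertical) and 12 libraries (horizontal, by group and replicate). The darkest red cells are GCC2 and GOLGA4 in HMLE-Twist mock replicate 1 and GOLGA5 in HMLE-pBp salinomycin replicate 1 (0.31, 0.29 and 0.30), and the darkest blue cell is GCC2 in HMLE-Twist mock replicate 3 (-0.29).

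The genes whose levels followed GOLGA3 most closely were MTERF4, NDEL1, POFUT2, ODF2 and ARHGAP1, with Pearson r of 0.976, 0.972, 0.968, 0.967 and 0.967 for log2(FPKM + 1) over the 12 libraries, among 11938 genes compared. The 12 points share their 4 groups and the response that GOLGA3 had between them. NDEL1, a partner of dynein, had log2 fold changes of 1.04 in HMLE-Twist cells and 0.54 in HMLE-pBp cells. POFUT2, a fucosyltransferase of the secretory pathway, had 1.04 in HMLE-Twist cells and 0.61 in HMLE-pBp cells. MTERF4 had 1.27 in HMLE-Twist cells and 1.41 in HMLE-pBp cells. ODF2 had 0.61 in HMLE-Twist cells and 0.57 in HMLE-pBp cells, and ARHGAP1 had 0.48 in each line.

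Of 15 other golgins and golgin-like proteins, 14 were tested: 7 rose and 1 fell in HMLE-Twist cells (against 12.8% and 13.5% of all tested genes), and 5 rose and 2 fell in HMLE-pBp cells (against 9.59% and 9.36%). In HMLE-Twist cells BLZF1, which binds GORASP2, rose by 0.74 ± 0.15 on the log2 scale and TMF1, a golgin that binds RAB6, by 0.67 ± 0.12. In HMLE-pBp cells the largest changes were those of BLZF1 (0.85 ± 0.15), TMF1 (0.78 ± 0.12) and USO1 (0.60 ± 0.12), the tether that docks on GOLGA2, which also rose in HMLE-Twist cells (0.66 ± 0.12). GOLM1 was the 1 gene of the list whose response differed between the lines (by 0.65, higher in HMLE-Twist cells), against 13.6% of all tested genes. The list's median log2 fold change was 0.34 in HMLE-Twist cells and 0.09 in HMLE-pBp cells.

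Of 16 genes for Golgi GTPases and the docking receptor SYS1, 13 were tested. In HMLE-Twist cells 2 rose and 2 fell, near the 12.8% and 13.5% of all tested genes, and in HMLE-pBp cells 5 rose and none fell, against 9.59% and 9.36%. ARL1, which recruits GRIP domain golgins, rose by 0.79 ± 0.16 in HMLE-Twist cells and by 1.19 ± 0.16 in HMLE-pBp cells (log2 scale). RAB2A rose by 0.34 ± 0.10 in HMLE-Twist cells and by 0.55 ± 0.10 in HMLE-pBp cells. RAB30 fell by 0.83 ± 0.11 in HMLE-Twist cells, and RAB6A and RAB1A rose by 0.72 ± 0.13 and 0.61 ± 0.11 in HMLE-pBp cells. The response of RAB30 was lower in HMLE-Twist cells than in HMLE-pBp cells (-0.94 ± 0.16, adjusted p = 0.00415), 1 of 13 genes against 13.6% of all tested genes. The list's medians were 0.21 in HMLE-Twist cells and 0.32 in HMLE-pBp cells.

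Of 18 Golgi SNAREs and partners, which fuse the vesicles that golgins catch, 7 rose and 1 fell in HMLE-Twist cells, against 12.8% and 13.5% of all tested genes, and 8 rose in HMLE-pBp cells, against 9.59%. BET1L rose by 1.35 ± 0.09 in HMLE-Twist cells and 0.67 ± 0.09 in HMLE-pBp cells, a difference that passed the test (0.68, adjusted p = 0.00565), as did those of VAMP3 (-0.63) and NSF (-0.49), 3 of 18 genes against 13.6% of all tested genes. GOSR2 rose by 0.84 ± 0.10 in HMLE-Twist cells and 0.80 ± 0.10 in HMLE-pBp cells, and BET1 by 0.63 ± 0.11 in HMLE-Twist cells and 0.76 ± 0.11 in HMLE-pBp cells. SEC22B rose by 0.63 ± 0.12 in HMLE-Twist cells and 0.84 ± 0.12 in HMLE-pBp cells, and STX5 by 0.57 ± 0.11 in HMLE-Twist cells and 0.78 ± 0.11 in HMLE-pBp cells. The recovered lengths of BLZF1, GOSR2 and SEC22B were 0.609, 0.584 and 0.272 of the reference and that of BET1 was 1.75. Those of BICD1, GOLGA8A and GOLGA8B in the list of other golgins, whose responses were called in neither line, were 0.336, 1.36 and 1.43. Their read multiple, which would move the responses of both lines alike, thus rests on less than those of the members. If the multiple of BLZF1, GOSR2 or SEC22B was set too low, its response would fall by more than the rise given. These rises, which are counted in their lists, are uncertain to that extent. The uncalled responses of BICD1, GOLGA8A and GOLGA8B, and the medians of the lists, are uncertain for the same reason. The list's medians were 0.12 in HMLE-Twist cells and 0.36 in HMLE-pBp cells.

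Of 17 tested subunits of the TRAPP and GARP tethering complexes, none passed the limma test in HMLE-Twist cells (3 had an unadjusted p under 0.05, and 2 passed with voom), where 26.3% of all tested genes passed. In HMLE-pBp cells 2 rose, TRAPPC6B by 0.35 ± 0.09 and VPS53 by 0.29 ± 0.09, near the 9.59% of all tested genes. The response of TRAPPC6B differed between the lines (-0.49), 1 of 17 genes against 13.6% of all tested genes. The medians were -0.02 in HMLE-Twist cells and 0.11 in HMLE-pBp cells. Of 12 other Golgi membrane proteins, 7 rose and 1 fell in HMLE-Twist cells, against 12.8% and 13.5% of all tested genes, and 5 rose in HMLE-pBp cells, against 9.59%. GOLT1B rose by 1.09 ± 0.14 in HMLE-Twist cells and 0.91 ± 0.14 in HMLE-pBp cells, and ACBD3, which binds GOLGB1, by 0.90 ± 0.10 in HMLE-Twist cells and 1.06 ± 0.10 in HMLE-pBp cells. SURF4, a cargo receptor, rose by 0.85 ± 0.08 in HMLE-Twist cells, and GOLPH3L by 0.49 ± 0.15 in HMLE-Twist cells and 0.69 ± 0.15 in HMLE-pBp cells. Responses were higher in HMLE-Twist cells for SURF4 (0.64), TMEM165 (0.51) and GLG1 (0.38), 3 of 12 genes against 6.96% of all tested genes. The list's medians were 0.42 in HMLE-Twist cells and 0.21 in HMLE-pBp cells. Of 6 genes of the TFE3 branch of the Golgi stress response, which include TFE3 itself and ACBD3 of the preceding list, 4 rose in HMLE-Twist cells, against 12.8% of all tested genes (STX3 by 0.93 ± 0.15, ACBD3 as above, ST3GAL1 by 0.83 ± 0.11) and 2 in HMLE-pBp cells, against 9.59% (ACBD3 as above, and FUT1 by 0.47 ± 0.10). The responses of STX3 and ST3GAL1 differed between the lines, by 0.79 (adjusted p = 0.0329) and 0.86 (adjusted p = 0.0054), 2 of 6 genes against 13.6% of all tested genes. The list's medians were 0.68 in HMLE-Twist cells and 0.31 in HMLE-pBp cells. TFE3 itself had log2 fold changes of 0.16 and 0.18, neither past the test.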

How the data were processed

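RNA was sequenced from 12 libraries in 4 groups of 3. The series' design text gives 750 ng of RNA as input to a stranded mRNA kit and paired reads of 75 cycles per end. The authors deposited FPKM for the mock groups and shrunk log2 values for the salinomycin groups, each table of 26364 genes scaled on its own. Per the submitters' processing notes, build hg19 and DESeq2 (listed as 1.1.0) were used. The sources used here do not give the aligner or counter. Whole reads were recovered from the steps of the mock FPKM and by inverting the shrinkage, where 98.55% (HMLE-Twist) and 96.05% (HMLE-pBp) of salinomycin values came within 0.1 of a whole read. A gene's mock reads are fixed only up to a whole multiple, which was set by length against GENCODE release 29. The 539 genes with no settled multiple were left out. All 10 members had a multiple of 1 and lengths 0.926 to 1.029 of the reference. Among genes with over 100 mock reads and a reference length, 48.2% had a recovered length within 5% of the reference. Shares and ranks over all genes rest on multiples set in this way. The rule for the multiple was changed after responses of listed genes had been seen. FPKM was rebuilt with size factors (median of ratios) common to the 12 libraries. Genes with FPKM of at least 1 in at least 3 libraries were fitted with limma 3.58.1 (R 4.3.3; lmFit, eBayes with trend) on log2(FPKM + 1), which understates changes of low genes, in 1 fit without covariates, at a Benjamini-Hochberg adjusted p of 0.05. Same-numbered libraries of a line deviated together from their group means (correlation across genes 0.454, 0.429 and 0.719 in HMLE-Twist; 0.534, 0.229 and 0.597 in HMLE-pBp), so the replicate block is given where it changes a call. Between lines, replicates 1, 2 and 3 correlated with the same number at 0.258, 0.0661 and 0.566 under mock. Under salinomycin these correlations were 0.278, 0.0398 and 0.593. No 2 replicates agreed within sampling noise (chi-square per degree of freedom 7.89 to 60.5). Scripts were tested on simulated data. Those for the fit held no shared replicate effect, and those for the recovery were made with the formula that it inverts. The tests thus do not cover departures of these data from either. All members were named; from each list up to 3 genes with the largest change past the threshold per line, and the 5 genes most like GOLGA3. A gene that this rule would name is not reported here. Members and lists were chosen with earlier results of these data known. Alternatives and their effects are given in the closing section.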

Additional observations from a re-analysis of the deposited data

Results flagged for a closer look

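The response to salinomycin differed between HMLE-Twist and HMLE-pBp cells by a test of the difference itself for GOLGA3 (0.35 on the log2 scale) and GOLGA4 (0.66), both larger in HMLE-Twist cells. For GOLGA3 the means were 32.6 FPKM under salinomycin and 10.9 under mock in HMLE-Twist cells, and 24.96 under salinomycin and 10.63 under mock in HMLE-pBp cells. For GOLGA4 they were 40.8 FPKM under salinomycin and 23.0 under mock in HMLE-Twist cells, and 35.2 under salinomycin and 31.6 under mock in HMLE-pBp cells. All 3 HMLE-Twist salinomycin libraries of each gene lay above the HMLE-Twist mock libraries, as they did for 19.1% of all tested genes. In HMLE-pBp cells this held for GOLGA3 as well, while the groups of GOLGA4 overlapped. The limma calls of the difference sat near the threshold (adjusted p = 0.0415 for GOLGA3 and 0.0439 for GOLGA4). They were lost without most single libraries, and 13.6% of all tested genes passed this test.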

How the results depend on the processing

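The number of members called held within 1.5 times in each setting run for both responses and both comparisons of lines (6 to 7 of 10 for the responses, 4 to 7 under mock and 6 to 7 under salinomycin between the lines). For the difference of responses the count of 2 became 1 with no filter on low values and 1 with voom weights, 3 with the replicate block, and 0 to 3 without single libraries; the cause was not tested. GOLGA4 lost that call with no filter (adjusted p = 0.0722) and GOLGA3 with voom (0.0523). GCC1 lost its HMLE-Twist response with total read scaling (0.0549) and with only the groups of the contrast in the fit (0.076), and its call between the lines under mock with 4 settings (0.0503 to 0.076). With the replicate block GOLGA5 was also called higher in HMLE-Twist than HMLE-pBp mock (0.0335); beside those of GCC2 and GORASP2, the block changed no other call of a member. Over all genes the block raised the count for the difference of responses to 3480, against 1625 without it, and for the HMLE-pBp response to 4008, against 2264. A block of its own for each line and voom were chosen after seeing the data. Total read scaling turned the difference between the lines to 0.030 for GOLGA1 under mock, and to 0.068 for GOLGA2 and 0.10 for GCC1 under salinomycin. Leaving out single libraries turned uncalled values near 0: GCC2 in HMLE-Twist ran from -0.054 to 0.25, the difference of responses of GOLGB1 from -0.12 to 0.055 and of GOLGA5 from -0.19 to 0.067, the mock comparison of lines from -0.052 to 0.062 for GORASP2 and -0.032 to 0.066 for GOLGA3, and the salinomycin one from -0.10 to 0.052 for GCC1. edgeR and DESeq2, planned as alternatives, were not run; voom was run on the recovered reads. Members held 452 reads or more in each library.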
